A study of Homo sapiens with 4 samples.

Results

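The AP-1 and small MAF factors described here are 10 of the 60623 genes counted in BICR10 cells, taken by symbol: FOS, FOSB, FOSL1 and FOSL2 of the FOS family, JUN, JUNB and JUND of the JUN family, and the small MAF genes MAFF, MAFG and MAFK. All 10 had enough counts to be tested. BICR10 is an established human head and neck cancer cell line. Cells were transduced with lentivirus carrying a control hairpin (shControl, 2 libraries) or a hairpin against YEATS2 (shYEATS2, 2 libraries), and both groups were selected with puromycin. YEATS2 is a reader of acylated histones and a subunit of the ATAC acetyltransferase complex. The study lists a pair of YEATS2 hairpins, and which of them each shYEATS2 library carried is not stated. The study's reporting checklist describes its data as biological replicates in general terms, and the labels do not tie the libraries of a group to separate cultures, so p-values measure the spread between these libraries.

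FOS and JUN proteins are basic leucine zipper (bZIP) transcription factors that pair to form AP-1, which binds the sequence TGACTCA and its variants. JUN proteins can pair with each other, whereas FOS proteins need a partner, and many of these genes are switched on within minutes of a growth factor or stress signal. The small MAF proteins are bZIP factors that lack an activation domain. They pair with CNC factors such as NRF2 or with BACH repressors on antioxidant response elements, and their homodimers can act as repressors. In squamous epithelia, AP-1 takes part in proliferation, wound repair and late differentiation.

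MAFF, FOSB, MAFK, FOSL1, JUN and FOSL2 rose after the YEATS2 hairpin, JUND fell, and FOS, JUNB and MAFG did not pass the test. The largest rise was that of MAFF, 4.68-fold, followed by FOSB at 2.52-fold. MAFK, FOSL1 and JUN rose 1.56-fold, 1.52-fold and 1.5-fold, FOSL2 rose 1.11-fold and JUND fell to 84.3% of its control level. Of the 10 members, 6 were called higher and 1 lower at an adjusted p under 0.05 in edgeR's quasi-likelihood test, where 22.6% of the 17058 tested genes were called higher and 23.6% lower. The median log2 fold change was 0.37 over the members and −0.01 over all tested genes. The members were chosen with earlier results of these data known, so the comparisons with all tested genes are descriptions. At a change of at least 2-fold, 2 members were called higher (FOSB and MAFF), against 5.99% of tested genes. In 7 members each shYEATS2 value exceeded each shControl value, an arrangement that 35.3% of tested genes showed. In the other 3 (FOS, JUNB and JUND) each was below, as in 36.3% of tested genes. DESeq2 called 5 members higher and 1 lower, without FOSL2, where it called 2820 of the 17058 genes higher and 2949 lower.

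The targeted gene was lower in both shYEATS2 libraries. YEATS2 (ENSG00000163872) had 66.1 and 66.7 CPM in the shControl libraries and 29.2 and 29.1 CPM in the shYEATS2 libraries, which is 44% of the control level (log2 fold change −1.19, SE 0.08). CPM here are library-size normalized counts (edgeR CPM with TMM factors). Totals on genes were 47297970 and 39824898 counts in shControl and 24072396 and 11334133 counts in shYEATS2, so that depth and condition cannot be told apart by the design. When counts were thinned to the total of the shallowest library, 6 members were called higher and 1 lower, with FOSL2 lost (adjusted p = 0.10) and MAFG gained (adjusted p = 0.046). Of the 14200 genes tested in that fit, 3085 were called higher and 3172 lower. The 10 members took 0.0675% and 0.0665% of the counts in shControl and 0.0919% and 0.0847% in shYEATS2. With library totals in place of TMM factors, the median of all tested genes moved from −0.01 to 0.13, the genes called higher and lower from 3857 and 4019 to 5441 and 2567, and the members called from 6 and 1 to 7 and 0.

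**Figure D1:**
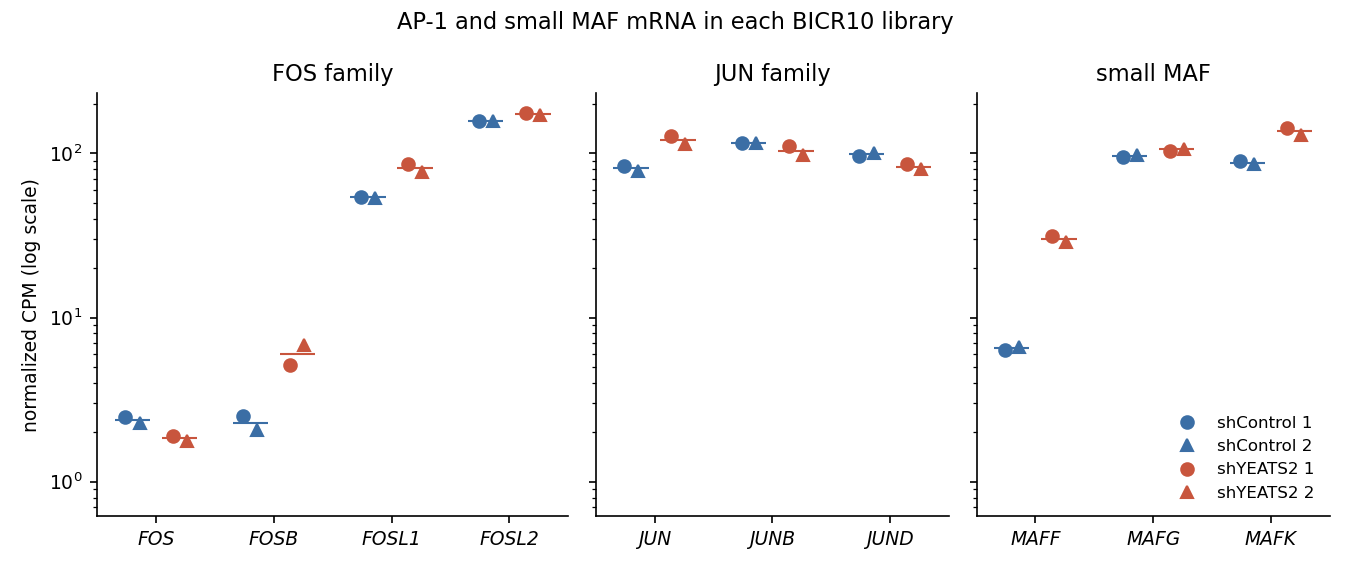
Normalized CPM (log scale) of the 10 members in each library, with blue for shControl, red for shYEATS2, circles for library 1, triangles for library 2 and a line at each group mean. MAFF lies between 6.37 and 6.62 CPM in shControl and between 28.9 and 31.4 CPM in shYEATS2, the widest gap of the members on this scale.

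Stretches of 4 promoters are shown, because FOSB, JUN and MAFF are the member of each family with the largest rise among those with a RefSeq window, and JUND is the member that fell. They are RefSeq sequences on GRCh38.p14, read 5′ to 3′ on the strand of the gene. FOSB lies at chr19:45467896-45467975 (plus strand, bases −100 to −21 from the start site), JUN at chr1:58784068-58784147 (minus strand, −100 to −21), JUND at chr19:18281693-18281822 (minus strand, −200 to −71) and MAFF at chr22:38201930-38201959 (plus strand, −64 to −35 from its first start site, inside an exon of other MAFF transcripts). Capitals mark the letters found in a search for the AP-1 and CRE motifs named after the sequences and for TATAAA, and ACGTCA in JUND is TGACGT on the opposite strand.
FOSB: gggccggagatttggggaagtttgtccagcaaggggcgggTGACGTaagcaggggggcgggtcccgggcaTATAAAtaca
JUN: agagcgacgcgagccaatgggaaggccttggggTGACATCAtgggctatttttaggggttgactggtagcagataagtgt
JUND: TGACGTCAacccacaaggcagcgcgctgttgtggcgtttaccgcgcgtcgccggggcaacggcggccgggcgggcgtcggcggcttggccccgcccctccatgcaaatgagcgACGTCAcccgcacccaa
MAFF: gccgggtcggTGACGTCAccgcatgactgg

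The search covered 300 bases around each start site (250 before and 50 after), on both strands, for the AP-1 site TGACTCA, its longer forms TGACGTCA and TGACATCA, the CRE core TGACGT (which every TGACGTCA also contains, on both strands) and TATAAA. RefSeq windows were found for 8 of the 10 members, 9 windows in all since MAFF had 2, and none was found for FOSL1 or MAFK. TGACGTCA stood in the JUND window at −200 to −193 and in the first MAFF window at −54 to −47, and 1.85% of all 35116 windows hold it. TGACATCA stood in the JUN window at −67 to −60, and 2.61% of windows hold it. TGACTCA was found in FOSL2 at 5 to 11 bases after the start, against 4.95% of windows. Outside TGACGTCA, the core TGACGT was found in FOS at −64 to −59, FOSB at −60 to −55, FOSL2 at −66 to −61, MAFG at 4 to 9 and, on the opposite strand, JUND at −87 to −82, and 7.98% of windows hold the core, those with TGACGTCA included. TATAAA was found in FOS (−33 to −28), FOSB (−30 to −25) and JUNB (−31 to −26), against 11.5% of windows. The second MAFF window held none of these. TGACGTCA stood before MAFF, which rose, and before JUND, which fell, and the core and TATAAA stood before both FOSB, which rose, and FOS, which was not called. FOSL1 and MAFK had no window and JUND was the only member called lower, so a tie between motif and direction was not tested. A match is only a match of letters, and binding was not measured here.

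The FOS family held 3 of the 6 members that rose, and the classical member FOS was not among them. FOS (ENSG00000170345, chr14:75278826-75282230, plus strand, 4 exons) encodes the founding member of the family. It was at 2.49 and 2.28 CPM in shControl and 1.89 and 1.78 CPM in shYEATS2, on 113, 86, 48 and 21 counts. The shYEATS2 values were the lower ones, but the log2 fold change of −0.37 (SE 0.26, 95% interval −0.88 to 0.15) was not called (edgeR adjusted p = 0.25). At these counts a clear fall and a slight rise could not be told apart.

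FOSB (ENSG00000125740, chr19:45467995-45475179, plus strand) is a growth factor and stress inducible relative of FOS that keeps the same activation domains in its full-length form. It was at 2.51 and 2.06 CPM in shControl and 5.13 and 6.79 CPM in shYEATS2, on 114, 78, 130 and 80 counts. Both shYEATS2 libraries were higher, and they differed more from each other than those of shControl did (5.96 ± 1.17 against 2.29 ± 0.318 CPM, SD, n = 2 each). The log2 fold change was 1.33 (SE 0.20, 95% interval 0.93 to 1.74, edgeR adjusted p = 8.4e-08). The 95% intervals of FOS and FOSB did not meet, and the difference between these changes was not tested itself.

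FOSL1 (ENSG00000175592, chr11:65892049-65900573, minus strand) encodes FRA1, a FOS protein without the strong activation domains that is abundant in many squamous and mesenchymal-like tumour cells. It was at 54.2 and 53.8 CPM in shControl and 85.9 and 77.2 CPM in shYEATS2. The groups were well apart, with a log2 fold change of 0.60 (SE 0.07, 95% interval 0.46 to 0.74, edgeR adjusted p = 3.8e-11). FOSL2 (ENSG00000075426, chr2:28392448-28417317, plus strand), which encodes the related FRA2, was at 158 and 157 CPM in shControl and 177 and 171 CPM in shYEATS2. Its rise was small, with a log2 fold change of 0.15 (SE 0.06, 95% interval 0.03 to 0.27, edgeR adjusted p = 0.04). That call was lost under 6 of 14 alternatives, among them DESeq2 (adjusted p = 0.057) and the fits without shControl library 1, shControl library 2 or shYEATS2 library 1.

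The JUN family was split, with JUN higher, JUND lower and JUNB not called. JUN (ENSG00000177606, chr1:58776845-58784048, minus strand, 1 exon) encodes c-Jun, the most strongly activating JUN protein and the substrate of the JNK kinases. It was at 83.9 and 77.9 CPM in shControl and 127 and 114 CPM in shYEATS2. Both shYEATS2 libraries were higher, with a log2 fold change of 0.58 (SE 0.07, 95% interval 0.45 to 0.72, edgeR adjusted p = 2.4e-11).

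JUNB (ENSG00000171223, chr19:12791486-12793315, plus strand, 1 exon) often counteracts c-Jun and restrains proliferation. It was at 115 and 116 CPM in shControl and 111 and 98.0 CPM in shYEATS2. The second shYEATS2 library set most of the distance between the groups, and the log2 fold change of −0.14 (SE 0.07, 95% interval −0.28 to −0.01) was not called (edgeR adjusted p = 0.065). Without shYEATS2 library 1 it was −0.26 and called (adjusted p = 0.00016), and with a replicate block −0.15 and called (adjusted p = 0.027).

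JUND (ENSG00000130522, chr19:18279694-18281622, minus strand, 1 exon) is the JUN gene with the steadiest expression in resting cells. It was at 96.5 and 101 CPM in shControl and 86.0 and 79.8 CPM in shYEATS2. Both shYEATS2 libraries were lower, with a log2 fold change of −0.25 (SE 0.07, 95% interval −0.38 to −0.11, edgeR adjusted p = 0.0016). The call was lost without shControl library 2 (−0.22, adjusted p = 0.068) and with library totals alone (−0.11, adjusted p = 0.15), where it lay 0.24 below the median of all genes.

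Among the small MAF genes MAFF and MAFK rose, and MAFG was not called. MAFF (ENSG00000185022, chr22:38200767-38216507, plus strand, 3 exons) encodes the small MAF protein whose gene is inducible by stress and inflammatory signals. It was at 6.37 and 6.62 CPM in shControl and 31.4 and 28.9 CPM in shYEATS2, on 289, 250, 796 and 341 counts. The distance between the groups was many times the spread within them, with a log2 fold change of 2.23 (SE 0.11, 95% interval 2.01 to 2.44, edgeR adjusted p = 4e-28). This change stood at percentile 98.7 of the log2 fold changes of tested genes, and over the 14 alternatives it lay between 2.07 and 2.36 and was called in each.

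MAFG (ENSG00000197063, chr17:81918270-81927735, minus strand) is a widely expressed small MAF gene and a common partner of NRF2. It was at 95.3 and 97.8 CPM in shControl and 104 and 107 CPM in shYEATS2. The groups did not overlap, but the log2 fold change of 0.13 (SE 0.06, 95% interval 0.00 to 0.26) was not called (edgeR adjusted p = 0.099). With library totals alone it was 0.26 and called (adjusted p = 0.00078), and with thinned counts 0.17 and called (adjusted p = 0.046).

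MAFK (ENSG00000198517, chr7:1530702-1543043, plus strand), first known as the small subunit of the erythroid factor NF-E2, was at 89.6 and 86.4 CPM in shControl and 143 and 130 CPM in shYEATS2. Both shYEATS2 libraries were higher, with a log2 fold change of 0.64 (SE 0.06, 95% interval 0.51 to 0.77, edgeR adjusted p = 4e-13). JUNB, MAFF, MAFG and MAFK share exonic bases with a neighbour, and the strand setting of the counting is not given in the sources used here. MAFF shares 326 bases with PLA2G6 and MAFK 809 with TMEM184A, both on the opposite strand. These neighbours were at 4.82 and 4.6 CPM in shControl and 4.22 and 4.30 CPM in shYEATS2. The part of reads over shared bases in the counts of the members was not tested. JUNB shares 259 bases with HOOK2 on the opposite strand (log2 fold change −0.07, SE 0.11). MAFG shares 105 bases with SIRT7 on its own strand (0.44, SE 0.08) and 224 with AC145207.8 on the opposite one (−0.58, SE 0.33).

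**Figure D2:**
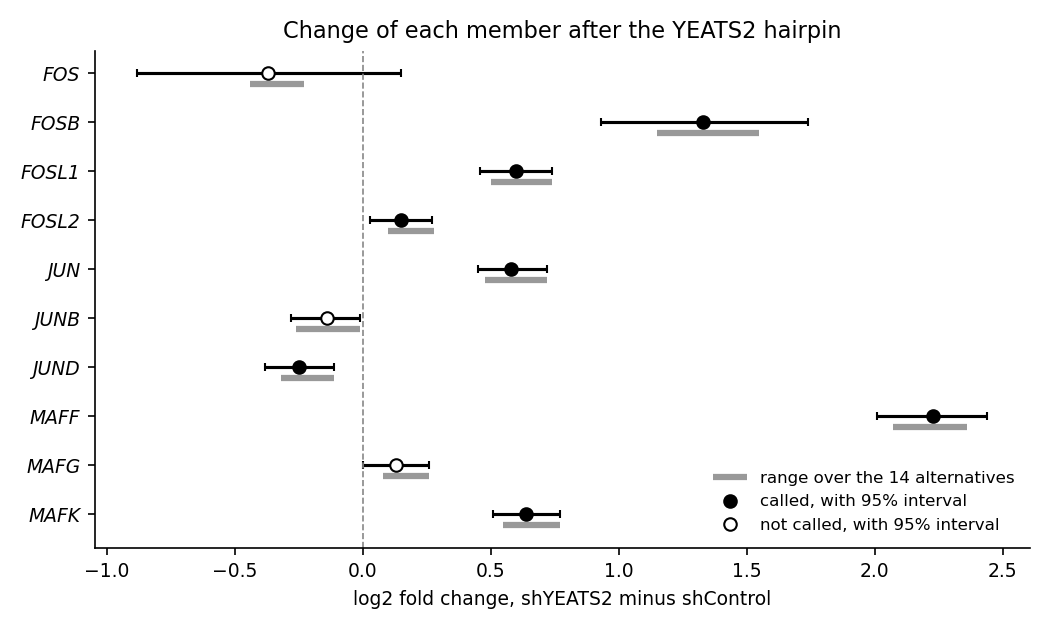
Log2 fold change (shYEATS2 minus shControl) of each member with its 95% interval, filled where called and open where not, with a grey bar for the range of the estimate over 14 alternatives. MAFF at 2.23 and FOSB at 1.33 stand to the right of the other members, and JUND at −0.25 is the called member on the left.

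Levels were compared between members per length, as normalized CPM per kilobase of merged exons. In shControl the order of the mean levels was JUNB (63.4), JUND (51.2), FOSL1 (28.6), JUN (22.3), FOSL2 (22), MAFK (19.7), MAFG (18.4), MAFF (1.16), FOS (0.748) and FOSB (0.412). JUN and FOSL2 overlapped between libraries, and the other neighbours in that order did not. In shYEATS2 the order was JUNB (57.0), FOSL1 (43.2), JUND (43.0), JUN (33.3), MAFK (30.5), FOSL2 (24.3), MAFG (20.2), MAFF (5.38), FOSB (1.07) and FOS (0.577), where FOSL1 overlapped with JUND and JUN with MAFK. So FOSL1 moved up to the level of JUND, and FOSB and FOS exchanged places at the bottom. The order of close members depends on the length used: by the canonical transcript MAFK (26.0) stood above JUN (24.8) and FOSL2 (23.4) in shControl, and MAFF went from 2.74 to 12.7 per kilobase.

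The make-up of each family was taken as each member's share of the family's summed CPM per kilobase. FOSL1 took 55.2% and 55.4% of the FOS family in shControl and 63.4% and 61.5% in shYEATS2. FOSL2 took 42.4% and 42.5%, then 34.5% and 35.8%. FOSL1 thus gained on FOSL2 in both shYEATS2 libraries, while FOS and FOSB together stayed a minor part of the family.

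FOS took 1.5% and 1.39% of its family in shControl and 0.828% and 0.840% in shYEATS2. FOSB took 0.870% and 0.722%, then 1.29% and 1.84%. Between these low members FOS had the larger share in both shControl libraries and FOSB in both shYEATS2 libraries.

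In the JUN family JUN took 17.0% and 15.6% in shControl and 25.1% and 24.9% in shYEATS2, with JUNB and JUND both lower. The summed level of the JUN family was 136 and 138 CPM per kilobase in shControl and 140 and 126 in shYEATS2, so the groups overlapped. That of the FOS family was 52.0 and 51.5, then 71.8 and 66.5. The ratio of the FOS sum to the JUN sum went from 0.382 and 0.375 to 0.512 and 0.527.

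Of the small MAF sum, MAFF took 2.88% and 3.01% in shControl and 9.75% and 9.43% in shYEATS2. MAFG took 46.2% and 47.6%, then 34.6% and 37.4%, and MAFK 50.9% and 49.4%, then 55.7% and 53.2%. The sum itself was 39.4 and 39.2 CPM per kilobase in shControl and 57.5 and 54.7 in shYEATS2. MAFF thus remained the least of the small MAF transcripts although it had the largest change. These shares depend on the length used. By the canonical transcript MAFF took 5.59% and 5.85%, then 17.4% and 17.0%, and the share of MAFK overlapped between the groups (55.2% and 53.6%, then 55.6% and 53.5%). In the FOS and JUN families no share changed its direction by that length.

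**Figure D3:**
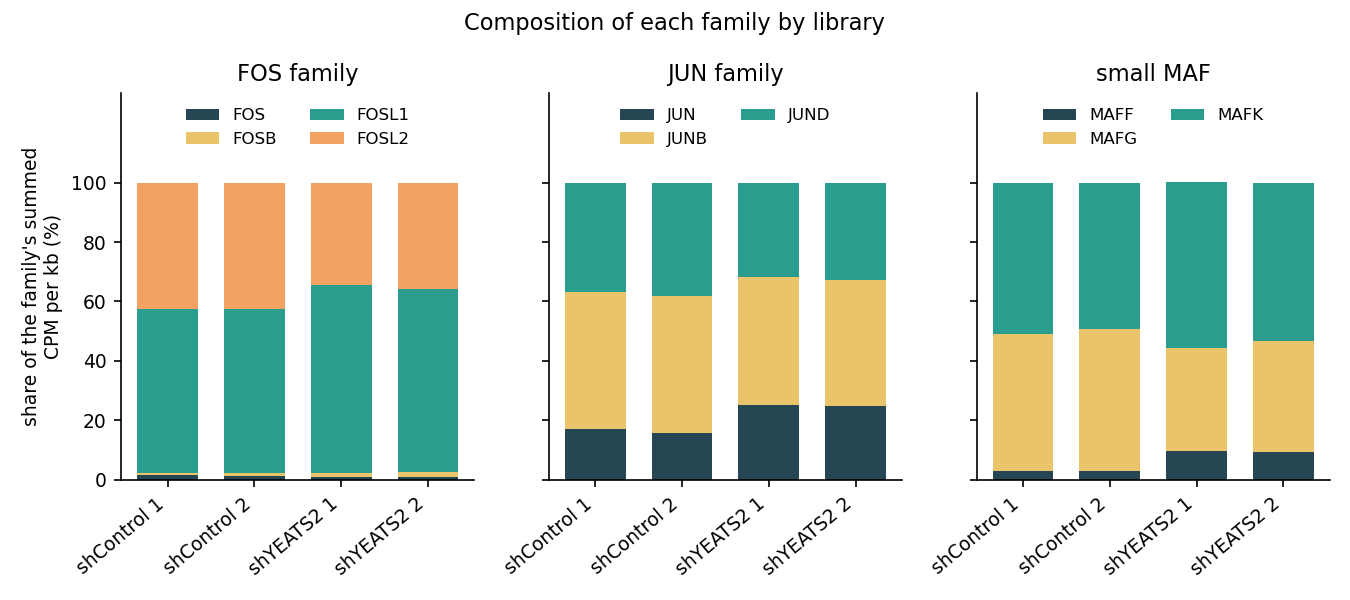
Share of each member in its family's summed CPM per kilobase (percent), 1 bar per library and 1 panel per family. JUN widens from 17.0% and 15.6% to 25.1% and 24.9% of the JUN family, and MAFF from 2.88% and 3.01% to 9.75% and 9.43% of the small MAF sum, by merged exon length.

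The genes whose centred log2 CPM over the 4 libraries lay nearest to MAFF, among the 9364 tested genes averaging 10 CPM or more, were HIST1H2BK (distance 0.0579), TRIB3 (0.118) and HIST1H2AC (0.118). HIST1H2BK and HIST1H2AC encode histones, and TRIB3 is a pseudokinase induced by stress. Their log2 fold changes were 2.20, 2.26 and 2.34. With 4 libraries this is a description of like values.

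Of all tested genes 22.6% were called higher and 23.6% lower (5441 and 2567 of 17058 genes with library totals), the shares to set beside each list below. Over the same genes, 4323 were higher and 4534 lower at an unadjusted p under 0.05, and DESeq2 called 2820 and 2949. Other bZIP factors that pair with AP-1 proteins went both ways, with 3 of 6 tested (of 7 listed) called higher and 2 lower, a median of 0.12. The count called lower was 1 with library totals, DESeq2 or either shControl library left out, and 0 with thinned counts. ATF3, a stress-induced factor that pairs with JUN proteins and often represses, was at 6.31 and 6.62 CPM in shControl and 36.9 and 34.8 CPM in shYEATS2. Its log2 fold change of 2.48 (SE 0.10, edgeR adjusted p = 2.3e-31) was above that of each of the 10 members, and its distance from MAFF was not tested. JDP2, a repressor that binds JUN, rose by 0.24 (SE 0.07) on the log2 scale, and ATF2, a JNK and p38 substrate, fell by 0.19 (SE 0.08). BATF, best known in lymphocytes, was at 0.705 and 0.662 CPM in shControl and had 0 counts in both shYEATS2 libraries, at least 3.67-fold lower when a floor of 3 counts per library is used. BATF2 was too low to test.

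The CNC and BACH partners of the small MAF proteins were higher in 4 of 6 and lower in 0 by edgeR, against 22.6% and 23.6% of all tested genes. The list counts were 5 and 1 at an unadjusted p under 0.05 and 4 and 0 by DESeq2, with a median of 0.45. NFE2L3, a CNC factor of the endoplasmic reticulum, was at 4.37 and 5.21 CPM in shControl and 14.8 and 17.1 CPM in shYEATS2, a log2 fold change of 1.72 (SE 0.13). NFE2L2, which encodes NRF2, rose by 0.46 (SE 0.06) and NFE2L1, which encodes the proteasome regulator NRF1, by 0.44 (SE 0.06). BACH1, a haem-sensitive repressor that competes with NRF2 for small MAF partners, rose by 0.41 (SE 0.07), and was named after its values were seen. Of the 4 large MAF genes, which do carry an activation domain, 2 were called lower and 0 higher by edgeR (0 higher at an unadjusted p under 0.05, and 0 higher and 1 lower by DESeq2). This list of 4 was not tested against the 23.6% of all tested genes called lower.

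Upstream of AP-1, the MAP kinases and MAP2 kinases had 4 of 17 called higher and 4 lower, 23.5% each way, close to the shares of all tested genes, and a median of 0.10. With library totals these counts were 8 and 2, and 2 were called higher with no filter and without either shControl library. MAPK3, which encodes ERK1, fell by 0.51 (SE 0.09) on the log2 scale, and MAPK7, which encodes ERK5, by 0.43 (SE 0.10). MAP2K3, an activator of p38, rose by 0.49 (SE 0.08). The mRNA of a kinase does not give its activity, and phosphorylation was not measured in these libraries.

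The MAP kinase phosphatases, feedback inhibitors of the pathway, had 4 of 10 called higher and 1 lower, against 22.6% and 23.6% of all tested genes. Their median was 0.19, and the list counts were 7 and 0 with library totals, where more of all tested genes were called higher (5441 against 3857). Without shControl library 2 none was called lower (0 of 10). DUSP4 was at 4.59 and 4.47 CPM in shControl and 20.1 and 18.3 CPM in shYEATS2, a log2 fold change of 2.09 (SE 0.12). DUSP5, a nuclear phosphatase of ERK, was at 9.57 and 10 CPM, then 39.5 and 36.4 CPM, a change of 1.96 (SE 0.10). DUSP7 fell by 0.38 (SE 0.11), and DUSP1, an immediate early phosphatase named after its values were seen, was at 0.05 (SE 0.06) and not called. Of the serum response factors, a list of SRF and genes that act with it, 3 of 6 were called higher and 1 lower, with a median of 0.16. This list of 6 was not tested against the shares of all tested genes. ELK3 rose by 0.50 (SE 0.07) and ELK4 by 0.36 (SE 0.07), and the coactivator MRTFB fell by 0.57 (SE 0.08).

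The other immediate early genes, which share signals with FOS and JUN, had 11 of 19 tested (of 20 listed) called higher and 0 lower by edgeR. Over all tested genes 22.6% were called higher and 23.6% lower. The list counts were 12 and 0 at an unadjusted p under 0.05 and 10 and 0 by DESeq2, with a median of 0.55. Without shYEATS2 library 1, 1 was called lower. The reprogramming factor KLF4 was at 20.1 and 19.6 CPM in shControl and 60.2 and 52.7 CPM in shYEATS2, a log2 fold change of 1.52 (SE 0.08). PPP1R15A, also called GADD34, which guides the dephosphorylation of eIF2α, went from 79.2 and 78.8 CPM to 233 and 209 CPM, a change of 1.49 (SE 0.06). IER3 rose by 1.15 (SE 0.08). The list did not move as 1 block: EGR1 at −0.02 (SE 0.09) and ZFP36 at 0.00 (SE 0.07), named after their values were seen, were not called, like FOS and JUNB.

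Of 22 listed AP-1 target genes, 15 could be tested, with a median of 0.42. Of these, 9 were called higher and 1 lower, against 22.6% and 23.6% of all tested genes. The count called lower was 0 without shControl library 1 and 3 without shYEATS2 library 1. HMGA1, a chromatin protein, rose from a mean of 129 to 269 CPM, a log2 fold change of 1.06 (SE 0.06). Cyclin D1 (CCND1) rose by 0.74 (SE 0.06) and the cell-surface receptor CD44 by 0.42 (SE 0.06). The 7 that could not be tested were the matrix metalloproteinase genes MMP1, MMP9, MMP10 and MMP13, each under 0.11 CPM in every library, and the cornified envelope genes SPRR1A, SPRR1B and LORICRIN, which had almost no counts.

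Of the NRF2 and small MAF target genes, 1 of 14 was called higher and 7 lower, with a median of −0.09. The count called higher was 4 with library totals, 3 with the replicate block, 3 without shYEATS2 library 1 and 2 with DESeq2 or without shControl library 1. HMOX1, which encodes the haem-degrading enzyme haem oxygenase 1 and is repressed by BACH1, was at 177 and 185 CPM in shControl and 46.9 and 42.0 CPM in shYEATS2, a log2 fold change of −2.02 (SE 0.07). The ferritin heavy chain gene FTH1 fell by 0.63 (SE 0.06), and OSGIN1 rose by 0.59 (SE 0.07). Over all 9 lists of partners, upstream genes and targets, 39 of 97 tested genes (of 106 listed) were called higher (40.2%) and 18 lower (18.6%), against 22.6% and 23.6% of all tested genes. The lists were chosen with earlier results of these data known, so these comparisons are descriptions and not tests.

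**Figure D4:**
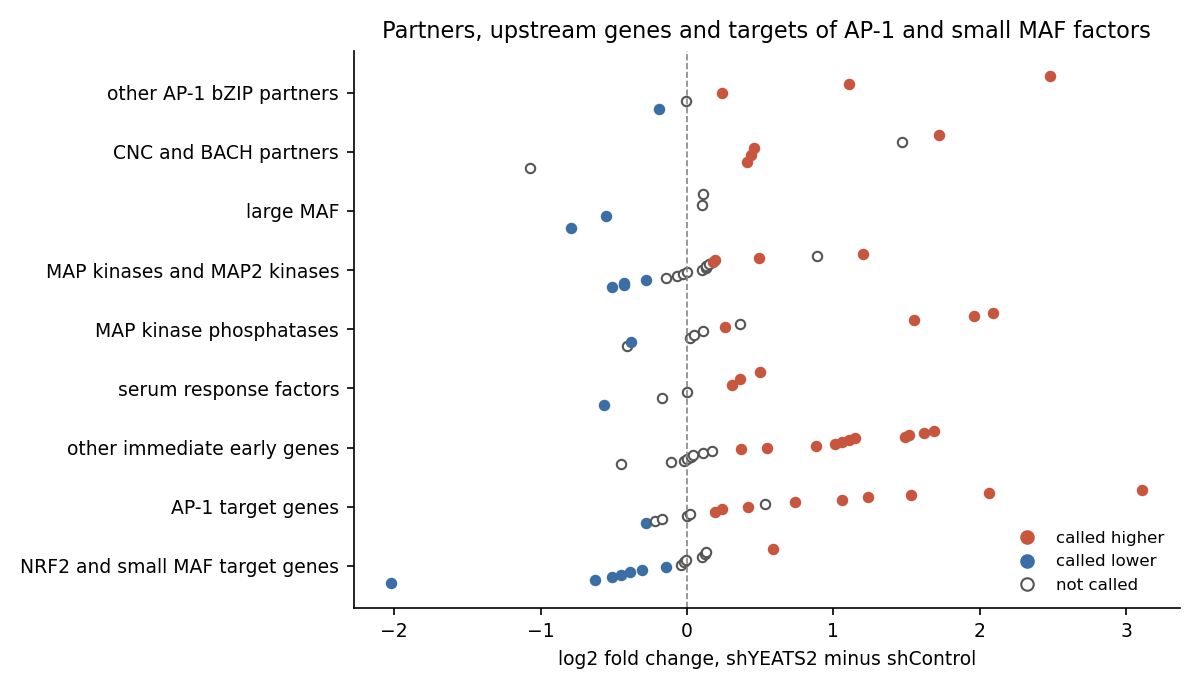
Log2 fold change (shYEATS2 minus shControl) of each tested gene in the 9 lists of partners, upstream genes and targets, red where called higher, blue where called lower and open where not called. BATF is left out because both shYEATS2 libraries had 0 counts, ATF3 is at 2.48 in the top row, and HMOX1 is at −2.02 in the bottom row.

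The summed levels of the epithelial, fibroblast and endothelial markers were lower in shYEATS2, but single markers did not all fall. The summed level of 8 epithelial markers was 398 and 392 CPM in shControl and 206 and 191 CPM in shYEATS2, with 5 of 6 tested genes lower and CDH1 higher. Over all tested genes 23.6% were called lower and 22.6% higher. KRT17 and the squamous factor TP63 stayed under 1 CPM in every library. The sum of 7 fibroblast markers was 3640 and 3580 CPM, then 1270 and 1200 CPM, with 5 of 6 tested lower, and most of it was COL1A1 (2840 and 2750 CPM, then 927 and 855 CPM). The epithelial keratins KRT8 (269 and 264 CPM, then 123 and 115 CPM) and KRT18 (110 and 111 CPM, then 78.2 and 72.3 CPM) were detected in both groups. KRT5 was detected in shControl (16.4 and 15 CPM) and low in shYEATS2 (1.03 and 1.36 CPM), at 7.26% of the control level. EPCAM (1.23 and 0.794 CPM, then 0.474 and 0.509 CPM), KRT14 (1.23 and 1.19 CPM, then 0.276 and 0.17 CPM) and CDH1 (0.353 and 0.318 CPM, then 2.84 and 2.12 CPM) were low. The fibroblast markers DCN (316 and 327 CPM, then 85.7 and 81.8 CPM) and LUM (442 and 469 CPM, then 236 and 240 CPM) were high, while PDGFRA and THY1 were at 3 CPM or less. PDGFRB (17.8 and 17.6 CPM, then 11.4 and 11.8 CPM) and FAP (12.7 and 13.8 CPM, then 13.4 and 10.6 CPM) lay between. FAP was not called (log2 fold change −0.11, SE 0.12). So the libraries held some epithelial and, in sum at higher levels, mesenchymal transcripts. Endothelial markers summed to 35.6 and 36.6 CPM, then 18.9 and 20.2 CPM, nearly all from KDR. All 5 leukocyte markers were under 1 CPM in every library, with sums of 0.110, 0.159, 0 and 0.255 CPM, and CD68 and CD3E had 0 counts in each. In bulk libraries fewer cells of a type and less RNA per cell cannot be told apart, and the part of these marker changes in the changes of the AP-1 and small MAF genes was not tested.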

How the data were processed

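RNA from 2 shControl and 2 shYEATS2 BICR10 libraries was enriched for mRNA, prepared with a stranded kit and sequenced as read pairs. Per the labels and the study's methods, the authors aligned to GRCh38 with STAR and counted with HTSeq, and deposited raw counts per gene without normalization. The STAR version, annotation release and strand setting are not given in the sources used here.

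Genes passing filterByExpr (17058) were scaled by TMM and tested with edgeR 4.0.16 (quasi-likelihood, robust) in R 4.3.3, with calls where the Benjamini-Hochberg adjusted p was under 0.05. edgeR was used where the study used DESeq2, which was run as an alternative (1.42.0). Each ± is the SD of 2 libraries. An exact permutation test of 2 against 2 cannot go below p = 0.333. The scripts were tested on simulated data. Lengths, positions and overlaps came from GENCODE release 44, which held 60295 of the 60623 identifiers.

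The members and lists were chosen with earlier results of these data known. Named genes were the members, YEATS2, the 3 genes nearest to MAFF, and up to 3 called genes per list with the largest change, a mean of at least 10 CPM and groups that did not overlap. Genes named outside this rule are said to be so or, for BATF, MMP, SPRR1, LORICRIN, BATF2 and marker genes, were named because of their counts near 0 or their marker role. Libraries of 1 group differed by more than counting noise (chi-square per degree of freedom 5.95 and 5.39). Over the tested genes, the difference of library 1 minus library 2 was almost uncorrelated between the conditions (correlation −0.018). That value alone does not tell whether the libraries were paired. Values of some list genes are not reported here.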

Additional observations from a re-analysis of the deposited data

How the results depend on the processing

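The 14 alternatives for each member were other scalings (DESeq2 size factors, library totals, upper quartile), no filter, a filter of 10 counts in each library, DESeq2, edgeR's likelihood ratio test, limma-voom, a replicate block, thinned counts, and each library left out. The estimate of no member changed sign. FOSB, FOSL1, JUN, MAFF and MAFK were called under all 14, FOSL2 under 8, JUND under 12, JUNB under 3, MAFG under 2 and FOS under 0. Of the 6 members called higher, 2 remained at a change of at least 2-fold, and leaving out 1 library gave 5 to 6. The 1 member called lower became 0 with library totals alone and at least 2-fold, 2 with no filter and 2 with the replicate block, and 0 to 2 when 1 library was left out (0 without shControl library 2, 2 without shYEATS2 library 1, where the lone library is assumed to vary like the other group). Of the list genes, 20 rather than 39 were called higher and 2 rather than 18 lower at a change of at least 2-fold. Over all genes, library totals alone gave 2567 genes called lower against 4019. Whether libraries of equal replicate number were paired is not stated, and blocking on these numbers turned JUNB into a call (−0.15) and changed the call of no other member. The lower depth of both shYEATS2 libraries limits the low genes, with 21 counts of FOS, 80 of FOSB and 0 of BATF in the shallowest library. Shares by canonical transcript length were added after seeing the data.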
